A study of Arabidopsis thaliana with 2 samples.

Results

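The immune regulators EDS1, PAD4, SAG101, NDR1, NPR1, NPR3, NPR4, NIMIN1 and NIMIN2 act in the innate immunity of Arabidopsis thaliana and were measured here in its young leaves. Their probes were found by locus, through the locus code or RefSeq accession that the deposited table gives each probe, a rule that uses no measured value, although the set of 9 was drawn up with earlier results of these data known. All 9 were found, with 15 probes, among 16956 genes measured on both arrays. The leaves came from wild-type plants and from the transgenic line 35S:NROB #2, both in the Columbia-0 accession and both at day 30 of growth. The 35S promoter is a viral promoter that drives a transgene in most plant tissues, the number names a single line, and the meaning of NROB is not stated in the labels. Each of 2 two-colour Agilent arrays carried 1 RNA sample of either genotype. The arrays are biological replicates per the labels, which do not say whether a replicate was 1 plant or a pool, so p values cover only the spread between these samples. Wild type carried Cy5 and 35S:NROB #2 carried Cy3 on both arrays, so dye and genotype cannot be told apart in any value below.

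EDS1 is a lipase-like protein that joins with PAD4 or with SAG101 and passes on signals from intracellular receptors of the TIR class. NDR1 is a plasma membrane protein needed by several receptors of the coiled-coil class. NPR1, NPR3 and NPR4 bind salicylate: NPR1 is a coactivator that works with TGA transcription factors, and NPR3 and NPR4 are known as corepressors of the same genes. NIMIN1 and NIMIN2 are small proteins that bind NPR1. In leaves these proteins are known from basal resistance, receptor-triggered immunity and systemic acquired resistance.

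Values are the authors' normalised intensities, one for each genotype on each array, and a log2 ratio is that of 35S:NROB #2 to wild type, as mean ± SD of the 2 arrays (n = 2). The header of the channel taken as wild type on array 2 also holds the name NROB. It was taken as wild type because the other channel of that array is headed NROB alone and the deposited ratio of wild type over NROB is reached with it. A gene with several probes is represented by its brightest. The median intensity over all genes tested lay between 1087 and 1246 in the 4 channels. Intensities were 0.22 (wild type) and 0.21 (35S:NROB #2) higher on array 2 than on array 1 on the log2 scale, in the median of all genes. All 6 leaf markers, among them the Rubisco small subunit gene RBCS1A, were bright (at least 3590 in every channel), and their summed intensity lay between 803437 and 885998 in the 4 channels. Of these markers 4 were lower and 1 higher in 35S:NROB #2 on both arrays, with LHCB2.1 the lowest at -0.47 ± 0.31. Of 15 root, floral and seed markers 0 had a probe flagged present on both arrays, and none read above 90.2. Among them the root marker PYK10 read 6.14 and 13.6 in wild type against 62.5 and 81.6 in 35S:NROB #2, and the floral marker PI read 6.21 and 7.49 against 28.9 and 90.2. The others did not share a direction. With probes kept whatever the flag, the floral markers AP3, AG, SEP3 and SEP1 had mean log2 ratios of 0.03, -0.02, 0.05 and -0.45. The root markers PRP3, EXPA7, MYB36 and COBL9 had 1.58, 0.80, 0.48 and -0.08. Seed markers ran from -0.35 for CRA1 to 0.77 for SESA3. The part of these markers in the results was not tested. No probe name, symbol or description holds the word NROB (0 probes), so the transgene was not checked. In whole leaves, a change in the share of a cell type and a change of RNA per cell cannot be told apart.

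All 9 regulators were brighter in 35S:NROB #2 than in wild type on both arrays, as were 37.8% of all genes tested. For each of them both 35S:NROB #2 intensities lay above both wild-type intensities, as was the case for 23.2% of all genes tested. The means ran from 0.50 for NDR1 to 2.36 for NIMIN2, with a median of 0.93 against -0.03 over all genes. A mean ratio over 2-fold with the same direction on both arrays, called the fold rule here, was met by 4 of the 9 (EDS1, PAD4, NIMIN1 and NIMIN2), against 4.82% of all genes as higher. In limma's fit over all genes, with Benjamini-Hochberg adjustment, 0 of the 9 were called at an adjusted p under 0.05, where 0.236% of all genes were called as higher. The members' limma adjusted p values lay between 0.0519 and 0.0964. At an unadjusted limma p under 0.05, 9 of the 9 passed, against 15.5% of all genes as higher. With 2 arrays the call is sensitive to the processing. Of 11 alternatives with a test, 9 called between 4 and 7 of these genes as higher. Those 9 alternatives called between 1.85% and 8.69% of all genes as higher. The 8.69% came from a fit that ignored the pairing of channels by array. EDS1, PAD4, NIMIN1 and NIMIN2 were called in each of those 9 alternatives.

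**Figure D1:**
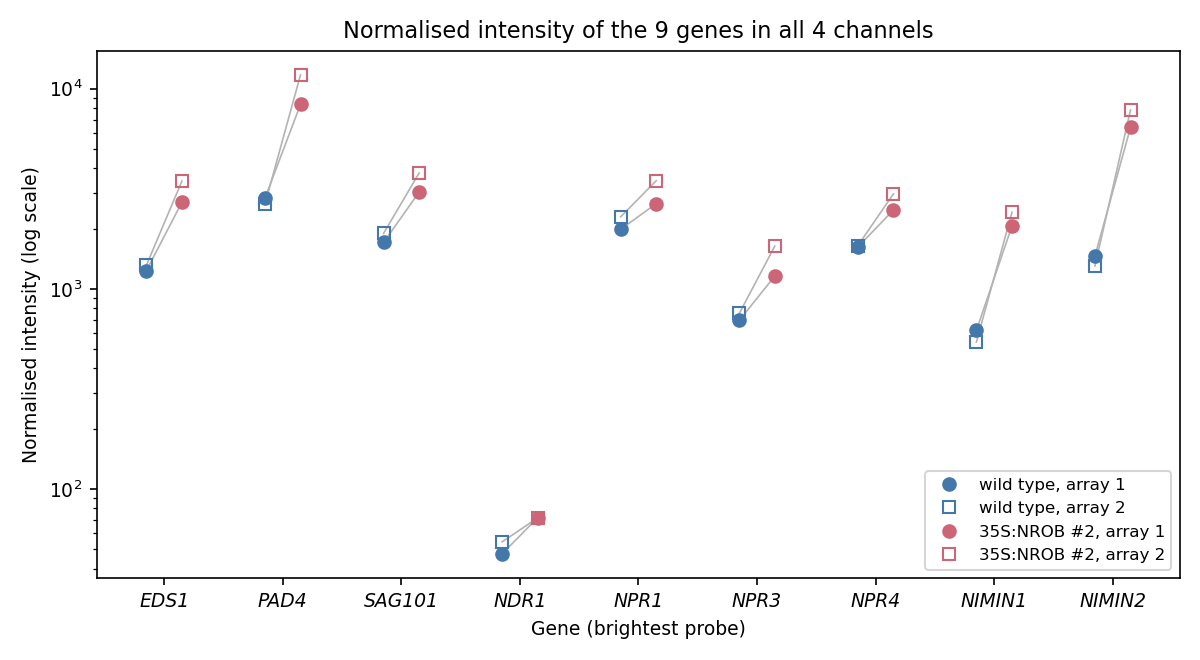
Normalised intensity (log axis) of the brightest probe of each of the 9 genes, in wild type (blue) and 35S:NROB #2 (red) on array 1 (filled circles) and array 2 (open squares). Grey lines join the channels of 1 array, and for every gene both red points lie above both blue points. Heights of different genes come from different probes and are not compared.

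In the EDS1 family, PAD4 (AT3G52430), the lipase-like partner of EDS1 that is known to promote salicylate accumulation, had wild-type intensities of 2836 on array 1 and 2646 on array 2. The transgenic leaves read 8342 and 11735. The wild-type values lay close together and the transgenic ones well above them, with the higher transgenic value on array 2. The mean log2 ratio was 1.85 ± 0.42, a fold of 3.61 (limma adjusted p = 0.0519), and 1.89% of all genes tested had a larger mean.

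EDS1 (AT3G48090), the shared partner in both complexes, read 1232 and 1309 in wild type against 2708 and 3455 in 35S:NROB #2. The groups did not overlap, and the 35S:NROB #2 value was more than 2 times the wild-type value on each array. Its mean log2 ratio was 1.27 ± 0.19, a fold of 2.41 (limma adjusted p = 0.0519). The locus beside it in the reference table, AT3G48080, is annotated in the deposited file as a disease resistance-related lipase class 3 protein. It read 1415 and 1685 in wild type against 2250 and 3183 in 35S:NROB #2, with a log2 ratio of 0.79 ± 0.18. How far RNA of that locus binds the EDS1 probes was not tested.

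SAG101 (AT5G14930), the other known partner of EDS1, read 1703 and 1890 in wild type against 3039 and 3786 in 35S:NROB #2. The groups were apart here as well, by a smaller margin than for PAD4. The mean log2 ratio of 0.92 ± 0.12 lay just under the 2-fold line, which array 2 alone reached at 1.00 and array 1 did not at 0.84 (limma adjusted p = 0.0570).

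EDS1, PAD4 and SAG101 each had 3 probes, all flagged present on both arrays, and all 9 probes gave a higher value in 35S:NROB #2 on both arrays. For EDS1 the probe means ran from 1.25 to 1.42, so its probes gave nearly the same ratio although the dimmest read 42.3 and 42.0 in wild type. For PAD4 the bright and the middle probe stood at 1.85 ± 0.42 and 1.86 ± 0.32, and the dimmest at 1.02 ± 0.49. This dimmest PAD4 probe read 131 and 106 in wild type against 209 and 272 in 35S:NROB #2. For SAG101 the means were 0.92, 0.85 and 0.69, the lowest again from the dimmest probe, which is annotated to another RefSeq transcript of the gene. Averaged over its probes, PAD4 had a log2 ratio of 1.58. The ratio of PAD4 thus depended on the probe by up to 0.84 on the log2 scale, against 0.17 for EDS1 and 0.23 for SAG101. The other 6 genes had 1 probe each, so no second probe checks them.

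**Figure D2:**
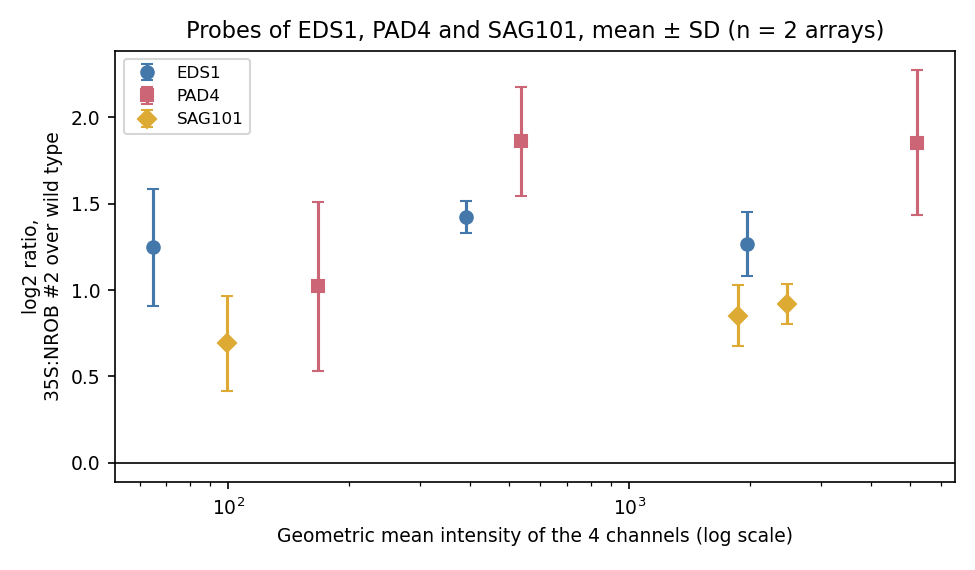
Mean log2 ratio (35S:NROB #2 over wild type, bars SD of the 2 arrays) of the 3 probes each of EDS1, PAD4 and SAG101, against the geometric mean intensity of the 4 channels (log axis). The probes of EDS1 lie between 1.25 and 1.42, and the dimmest probe of PAD4 at 1.02 lies below its other probes.

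NDR1 (AT3G20600), the membrane protein of the coiled-coil receptor branch, was dim in every channel. It read 47.4 and 54.4 in wild type against 71.8 and 71.6 in 35S:NROB #2. The groups did not overlap, but the values lay close to the lowest intensities flagged present (between 25.4 and 51.0 by channel). Its mean log2 ratio was 0.50 ± 0.14 (limma adjusted p = 0.0964), and it was the 1 gene of the 9 with the smaller ratio on array 2 (0.40 against 0.60). After adding 50 to all intensities its log2 ratio was 0.27, and after quantile normalisation 0.30, so the size of the NDR1 difference moved with the processing.

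Among the salicylate-binding proteins, NPR3 (AT5G45110), a relative of NPR1 known as a negative regulator of defence genes, read 694 and 752 in wild type against 1158 and 1635 in 35S:NROB #2. Its mean log2 ratio was 0.93 ± 0.27 (limma adjusted p = 0.0668), with 0.74 on array 1 and 1.12 on array 2. NPR4 (AT4G19660), its close relative with a like role, read 1617 and 1641 in wild type against 2472 and 2978 in 35S:NROB #2. For NPR4 the wild-type readings differed by 0.02 on the log2 scale, and both transgenic values lay above them. Its mean log2 ratio was 0.74 ± 0.17 (limma adjusted p = 0.0707).

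NPR1 (AT1G64280), the coactivator itself, read 1980 and 2288 in wild type against 2664 and 3467 in 35S:NROB #2. The groups were apart with the smallest gap of the bright genes, the lower transgenic value being 2664 and the higher wild-type value 2288. Its mean log2 ratio was 0.51 ± 0.12, a fold of 1.43 (limma adjusted p = 0.0905), and 11.6% of all genes had a larger mean. NPR1 and NDR1 were called under none of the alternatives (0 of 11 and 0 of 10). A further probe that carries the symbol NPR1 is described in the file as At1g64270, a locus next to NPR1 in the reference table, and was not counted as NPR1. It was slightly lower in 35S:NROB #2, at -0.12 on array 1 and -0.12 on array 2.

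The NPR1-binding proteins gave the 2 largest mean ratios of the 9, although NIMIN1 and PAD4 did not differ beyond their spread. NIMIN2 (AT3G25882) read 1458 and 1300.3 in wild type against 6402 and 7827 in 35S:NROB #2. On each array the transgenic value was more than 4 times the wild-type value. The mean log2 ratio was 2.36 ± 0.32, a fold of 5.14 (limma adjusted p = 0.0519), and 206 of the 16956 genes had a larger mean. NIMIN1 (AT1G02450), known in Arabidopsis to hold back NPR1-dependent PR1 expression, read 619 and 542 in wild type against 2060 and 2410 in 35S:NROB #2. Its mean log2 ratio was 1.94 ± 0.30, a fold of 3.85 (limma adjusted p = 0.0519).

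**Figure D3:**
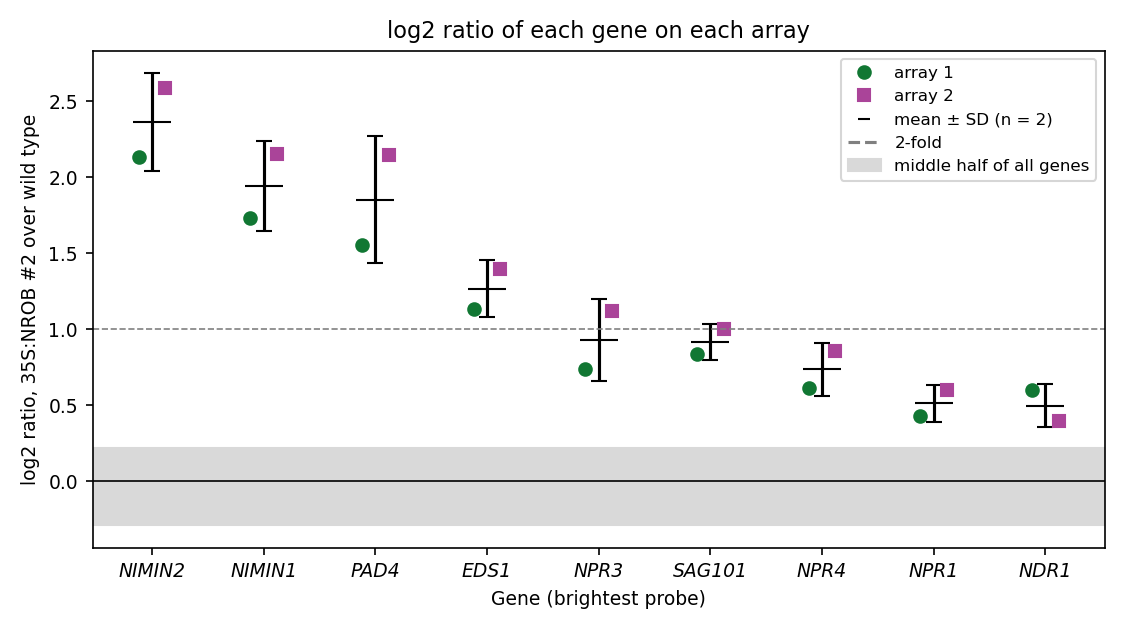
log2 ratio (35S:NROB #2 over wild type) of the 9 genes on array 1 (circles) and array 2 (squares), with mean and SD (n = 2), the 2-fold line and, in grey, the interquartile range of all genes tested (-0.29 to 0.22). NIMIN2 is highest at 2.36 and NDR1 lowest at 0.50, and all points lie above the grey band.

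Ordered by mean log2 ratio, the genes ran NIMIN2, NIMIN1, PAD4, EDS1, NPR3, SAG101, NPR4, NPR1 and NDR1. Neighbours were compared within each array, as a description. NIMIN2 exceeded NIMIN1 by 0.42 ± 0.03, and PAD4 exceeded EDS1 by 0.58 ± 0.23. EDS1 exceeded NPR3 by 0.34 ± 0.08, SAG101 exceeded NPR4 by 0.18 ± 0.06, and NPR4 exceeded NPR1 by 0.22 ± 0.05. These 5 steps were larger than the spread between the arrays. The other 3 were not: NIMIN1 over PAD4 (0.09 ± 0.12), NPR3 over SAG101 (0.01 ± 0.15) and NPR1 over NDR1 (0.02 ± 0.26). NPR3 and SAG101, and likewise NPR1 and NDR1, had opposite orders on the 2 arrays. Each ratio is that of 1 probe, so the order is one of probes as much as of genes. With the mean of all its probes in place of its brightest, PAD4 stood at 1.58 and SAG101 at 0.82, and their ranks among the 9 stayed as given.

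The arrays agreed in direction and differed in size. Of the 9 genes, 8 had the larger ratio on array 2, as did 78.0% of all genes that were higher on both arrays. The median ratio of the 9 was 0.84 on array 1 and 1.12 on array 2. Between the arrays, PAD4, NIMIN1 and NIMIN2 had lower wild-type intensities on array 2, by log2 changes of -0.10, -0.19 and -0.17, while the median gene gained 0.22. In 35S:NROB #2 all but NDR1 were higher on array 2, by 0.23 to 0.50. For all 9 genes the ratio of genotypes on either array was larger than the change between arrays within either genotype. Array 2 alone put 6 of the 9 over 2-fold (NPR3 and SAG101 joining the 4), and array 1 alone put 4.

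**Figure D4:**
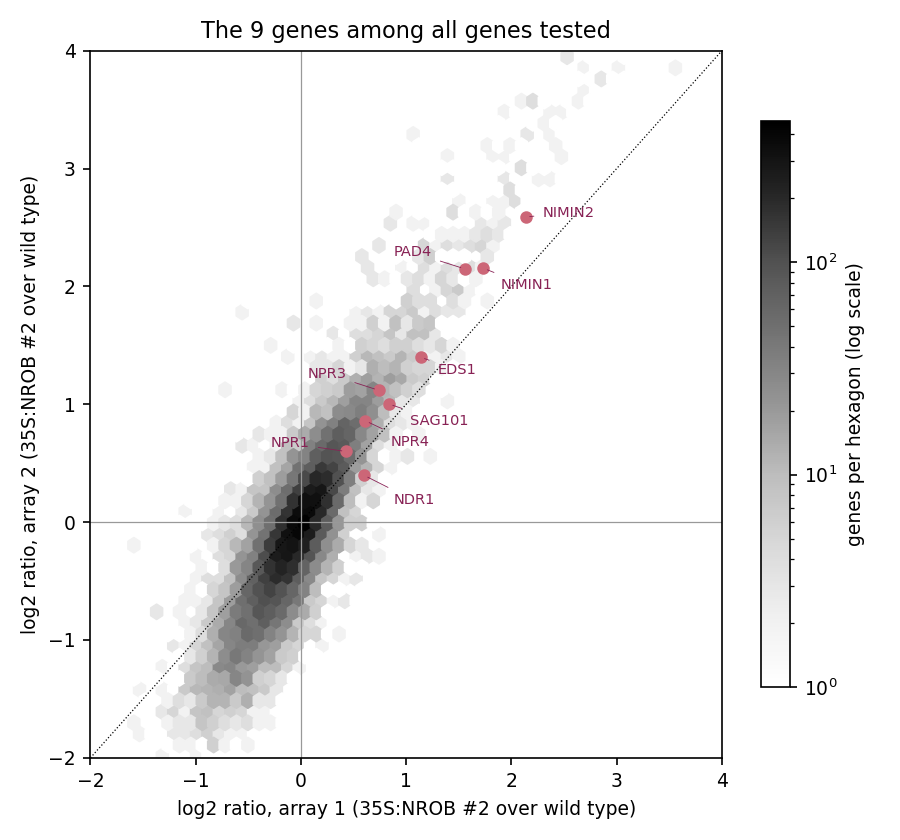
log2 ratio (35S:NROB #2 over wild type) on array 1 and array 2 for all genes tested (grey, genes per hexagon on a log scale) and the 9 regulators (red). Genes beyond the axis limits are not drawn. On the dotted line both arrays give the same ratio, and 8 of the 9 genes lie above it, with NDR1 below.

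Other genes of these pathways were taken from 6 lists that hold none of the 9. The list of partners of EDS1 held helper and sensor receptor genes and the lipase-like AT3G48080 described above. Of its 11 genes 9 were measured, with a median of 0.36, and 9 were higher on both arrays (8 after quantile normalisation), against 37.8% of all genes. One of the 9, RRS1, had a log2 ratio of only 0.00014 on array 1. None was called by limma (0 of 9, with 5 higher at an unadjusted p under 0.05, against 15.5% of all genes). The fold rule was passed by 1, against 4.82% of all genes as higher. That was ADR1, a helper receptor known to act with EDS1 and PAD4, which read 854 and 826 in wild type against 1787 and 2818 in 35S:NROB #2 (1.42 ± 0.50). Its relatives ADR1-L1 and ADR1-L2 stood at 0.95 ± 0.40 and 0.93 ± 0.39. The sensor receptor genes RPS4, RRS1 and SNC1 stood between 0.13 and 0.29. AT5G66890, annotated as a putative disease resistance protein, was flagged absent on both arrays, with 9.29 and 14.4 in wild type against 98.3 and 143 in 35S:NROB #2. Spots flagged absent had a dimmer channel of up to 50.1 on array 1 and 66.0 on array 2. Against these levels AT5G66890 was higher by a log2 ratio of at least 0.97 on array 1 and 1.11 on array 2. The mean of these bounds is 2.06-fold.

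In the branch of NDR1, the 8 genes listed had a median of 0.37. Of the 8, 7 were higher on both arrays, against 37.8% of all genes. limma called 0 of the 8, and 0 passed the fold rule. An unadjusted limma p under 0.05 was reached by 4 as higher, against 15.5% of all genes. RIN4, the membrane protein that NDR1 binds, stood at 0.07 ± 0.13, and the receptors RPS2 and RPM1 at 0.53 ± 0.06 and 0.41 ± 0.05. The cochaperone gene SGT1A was the highest of them at 0.75 ± 0.09.

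Among relatives of NPR1 and proteins known to act on it, 9 of 10 genes were measured, with a median of 0.21 and a range from -0.40 to 2.95. None was called by limma (0 of 9). With an unadjusted limma p under 0.05, 3 were higher, against 15.5% of all genes, and 1 was lower. The fold rule was passed by 2, against 4.82% of all genes as higher. AT4G26120, which the deposited file describes as regulatory protein NPR2 and which is a close relative of NPR1, read 55.2 and 55.7 in wild type against 307 and 597 in 35S:NROB #2 (2.95 ± 0.67; limma adjusted p = 0.0519). Its wild-type values lay close to the dimmest signals flagged present. TRXH5, a thioredoxin known to reduce NPR1, read 12312 and 8204 in wild type against 41659 and 69760 in 35S:NROB #2 (2.42 ± 0.94). The ubiquitin ligase scaffold genes CUL3A and CUL3B stood at 0.17 ± 0.11 and -0.05 ± 0.08, and NIMIN3, a further NIMIN gene, at 0.21 ± 0.22. BOP2, a relative of NPR1 known from leaf and flower patterning, stood at -0.40 ± 0.12.

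The 7 TGA transcription factor genes had a median of 0.02. Higher on both arrays were 3 (4 with the probes of each gene averaged), against 37.8% of all genes. Lower on both arrays were 2 (1 after median centring or loess). None was called by limma (0 of 7, with 1 higher at an unadjusted p under 0.05, against 15.5% of all genes). The fold rule was passed by 0. Means ran from -0.33 for TGA7 to 0.61 for TGA5. Over the alternatives with a test, limma called at most 4 genes of the EDS1 partner list and 1 of the NDR1 list. For the NPR1 regulator list the most was 2, and for the TGA list 0. These alternatives called between 0.136% and 8.69% of all genes as higher. The 8.69% and the 4 came from the fit that did not pair channels by array. Only TGA5 had both 35S:NROB #2 intensities above both wild-type ones (1 of 7), against 23.2% of all genes.

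Genes known to depend on NPR1 had a median of 2.47. All 10 were higher on both arrays, against 37.8% of all genes. Of the 10, 9 passed the fold rule and 1 was called by limma, against 4.82% and 0.236% of all genes as higher. The call was PR1, a secreted protein used as a marker of salicylate signalling, which rose by 6.44 ± 0.53 on the log2 scale (limma adjusted p = 0.0247). WRKY38, PR2 and GRX480 followed at 4.50 ± 0.86, 3.77 ± 0.79 and 3.07 ± 1.93. WRKY54 was the 1 gene below the fold rule, at 0.69 ± 0.25. Over the alternatives with a test, limma called between 1 and 10 genes of this list, and between 0.136% and 8.69% of all genes as higher. Both upper ends came from the fit that did not pair channels by array. Of the 8 genes of salicylate and N-hydroxypipecolate synthesis, 7 were measured, with a median of 2.25. All 7 passed the fold rule, against 4.82% of all genes as higher. The limma call among them was ALD1, at 4.91 ± 0.38 (adjusted p = 0.0247), whose wild-type intensities of 34.8 and 28.6 lay near the dimmest signals flagged present. CBP60G, PBS3 and EDS5 stood at 2.52 ± 0.63, 2.48 ± 0.35 and 2.25 ± 0.55. FMO1, the enzyme that makes N-hydroxypipecolate, read 21.9 and 19.5 in wild type against 11522 and 13458 in 35S:NROB #2. It was flagged absent on both arrays and so lay outside the reported fit, but was called where all gene probes were kept (limma adjusted p = 0.0112). That setting also called as higher the root markers PYK10 and PRP3 and the floral marker PI, all dim and flagged absent on both arrays (limma adjusted p = 0.0274, 0.0296 and 0.0435). It called none of the other root, floral and seed markers. Against the highest dimmer channel among spots flagged absent (50.1 and 66.0), FMO1 was higher by a log2 ratio of at least 7.85 on array 1 and 7.67 on array 2. The mean of these bounds is 216.5-fold. Of the 11 alternatives with a test, 9 called every measured gene of this synthesis list, and the other 2 called 1. Those 9 called between 1.85% and 8.69% of all genes as higher, the 8.69% without pairing channels by array. Both lists' medians lay above that of the 9 regulators (0.93), and those of the EDS1 partner, NDR1, NPR1-regulator and TGA lists below it. The difference between lists was not tested.

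**Figure D5:**
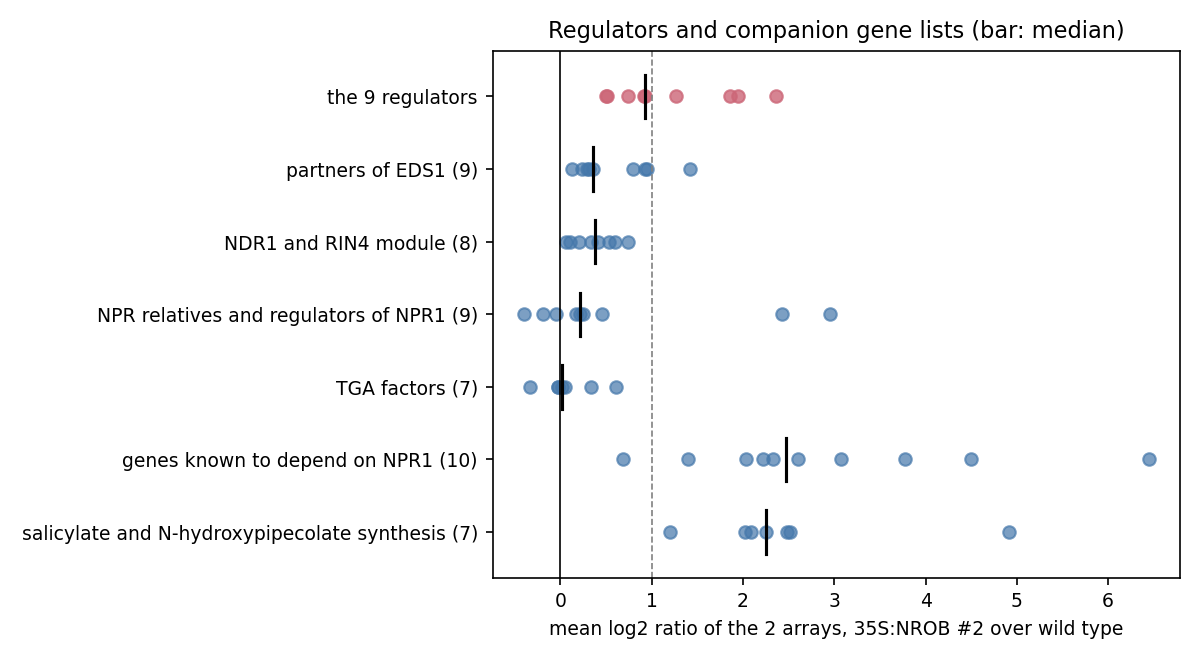
Mean log2 ratio of the 2 arrays (35S:NROB #2 over wild type) of each of the 9 regulators (red) and of each measured gene of 6 companion lists (blue, number measured in brackets), with the median of each set as a black bar and 2-fold as a dashed line. The medians run from 0.02 for the TGA factors to 2.47 for the genes known to depend on NPR1, with the 9 regulators at 0.93.

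To show which other named genes had the most similar ratios, the distance between the pairs of log2 ratios was taken over genes of like intensity. Genes known only by a locus code were left out, so unnamed genes may lie closer. With 2 arrays this measure rests on 2 values, and many genes lie close by. For EDS1 the nearest were the glutamate receptor-like channel gene GLR2.7 (distance 0.13), the transporter ABCC4 (0.15) and the receptor-like protein RLP38 (0.16). For PAD4 they were the cytochrome P450 gene CYP71B23 (0.15), the cysteine-rich receptor-like kinase CRK4 (0.16) and RLP34 (0.20). For NPR1 they were CNBT1, a cyclic nucleotide-gated channel (0.015), ARFB1B, an ADP-ribosylation factor (0.015), and the protein kinase gene NAK (0.028).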

How the data were processed

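Leaf RNA was amplified and labelled with Cy5 or Cy3, per the labels' protocols, and the submitters' processing notes name Agilent Feature Extraction 8.5.1.1. The deposited table holds, per the file headers, normalized intensity values for both channels, which are linear. The normalization and background methods, and what the P, A and M flags mean, are not given in the sources used here, and P was read as present. The deposited log2 ratio of the authors is wild type over 35S:NROB #2 and was turned. It equals the log2 of the channels within 9.62e-07. The value table of the series holds the turned ratio within 5e-06.

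Of 43603 gene probes, 36679 were given a locus through the reference table of assembly TAIR10.1 (names only). Of the same 43603, with or without a locus, 25318 (58.1%) were flagged P on both arrays. Probes with a locus and a P flag on both arrays were kept. Each gene took its brightest such probe. limma 3.58.1 in R 4.3.3 fitted an intercept to the 2 log2 ratios, with eBayes (2.71 prior and 1 residual degrees of freedom) and Benjamini-Hochberg adjustment over 16956 genes. The number of arrays limits the precision. The fold rule (mean log2 ratio over 1 in size, same sign on both arrays) is not a test.

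The set of 9 members, the companion lists and the alternatives were chosen with earlier results of these data known. Named from each companion list were up to 4 genes in each direction with the largest mean log2 ratio that passed limma or the fold rule. Further list genes were chosen after their values were seen. In the companion lists, 6 symbols are not in the reference table and such genes are given by locus, with the file's description where it names them. Likeness was the Euclidean distance over the 2 ratios among genes within 1 of the mean log2 intensity. Only genes with a symbol other than a locus code entered, and 3 are given for each of EDS1, PAD4 and NPR1. Python 3.11.15 with pandas 2.3.3 and matplotlib 3.10.9 read and drew the data. Sequences were not used here.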

Additional observations from a re-analysis of the deposited data

How the results depend on the processing

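Across 116 member values under the alternatives, none changed sign (0), and 4 of the 9 genes passed the fold rule in each alternative that used both arrays. Several alternatives left the members' ratios as reported, so neither result could differ there. These changed only the flag rule, the intensity cut, the value table or the form of the fit. Leaving out an array gave the ratios of the other array, which are printed above. The array left out moved the members' median between 0.84 and 1.12, the members past 2-fold between 4 and 6, and the genes past the fold rule between 796 and 2214 (1300 with both). Keeping all gene probes gave 26375 genes to test, and leaving out the lower quartile of intensity 12717, against 16956 as reported. The fold rule gave 2797 genes with the former and 710 with the latter. limma's count depended on the processing (42 genes and 0 members as reported). With each array centred on its median it called 611 genes (462 higher, 149 lower) and 5 members. With loess within arrays it called 1452 (933 and 519) and 7, with quantile normalization 717 (497 and 220) and 5, and with an offset of 50 it called 722 (516 and 206) and 5. With all gene probes it called 1507 and 5, leaving out the lower intensity quartile 321 and 4, averaging the probes of each gene 600 and 4, and with an intensity trend in eBayes 909 and 5. Without pairing channels by array (no replicate block) it called 2943 (1474 and 1469) and 7. With probes present on at least 1 array it called 25 of 17679 genes and 0 members, and with the value table of the series 42 and 0. As reported, 4 members lay at a limma adjusted p of 0.0519, and the cause of the moves was not tested. PR1 and ALD1 were called in every tested alternative that held them (11 of 11 and 10 of 10). Among these, the value table of the series repeats the reported ratios, so its calls could not differ. Dim signal limits NDR1, which had no value once the lower quartile of intensity was left out.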
